A study of Mus musculus with 110 samples.

Results

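The untreated Rad21 degron line was compared with the untreated parental line by the V(D)J junctions that each formed from a bait at the JH4 segment of the mouse Igh locus. The members are the full junction libraries titled for these lines without auxin, from the a and b sets, with the line that also lacks IGCR1 left out. This gave 14 of the 110 libraries of the series: 6 of the Rad21 degron line (3 replicates) and 8 of the parental line (4 replicates). Both are v-Abl transformed pro-B cell lines, immortalised precursors of B cells, which carry an Eμ-Bcl2 transgene and lack RAG2. The genotype label of the degron line adds only the Rad21 degron, a tag through which the auxin indole-3-acetic acid (IAA) can trigger breakdown of the cohesin subunit Rad21. Cells of both lines were nucleofected with RAG2 and kept in 3 µM STI-571, an Abl kinase inhibitor, for 4 days, and neither group received IAA. The labels do not say whether a line is 1 clone, or whether its replicates are separate cultures, so p-values measure the spread between these replicates only. The comparison asks whether D and VH use already differ in the tagged line without IAA. These libraries do not measure Rad21, so its level in the untreated degron line is not known here.

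Pro-B cells assemble the variable exon of the antibody heavy chain in order, joining a D segment to a JH segment first and then a VH segment to the DJH join. The RAG recombinase cuts at recombination signal sequences (RSSs), which consist of a heptamer and a nonamer with a spacer between them. Cohesin, a ring-shaped complex that includes Rad21, extrudes chromatin loops past RAG bound near the JH segments and so brings distant D and VH segments to it. Ighd4-1 (DQ52) lies next to the JH cluster, whereas Ighd1-1 (DFL16.1) lies at the far end of the D array, and the first used VH segments lie beyond IGCR1, a CTCF-bound control region.

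The sequences that carry the comparison are those of the segments at the ends of the D array and of the most used VH, read from mm9, with the Ighd2 segment Ighd2-3 shown as a member of the largest D family. All lie on the minus strand of chromosome 12 and are written in gene orientation. Capitals mark heptamers and nonamers, those on both sides of a D and on the 3′ side of the VH, of which the last 30 coding bases are shown. Ighd4-1 has 11 coding bases, Ighd2-3 has 17 and Ighd1-1 has 23.
Ighd4-1, mm9 chr12:114668711-114668777: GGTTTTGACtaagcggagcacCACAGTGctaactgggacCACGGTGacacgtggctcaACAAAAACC
Ighd2-3, mm9 chr12:114713583-114713655: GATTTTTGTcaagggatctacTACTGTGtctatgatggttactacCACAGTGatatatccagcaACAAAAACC
Ighd1-1, mm9 chr12:114720353-114720431: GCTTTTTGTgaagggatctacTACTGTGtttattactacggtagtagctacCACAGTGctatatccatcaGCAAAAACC
Ighv5-2, mm9 chr12:114816676-114816744: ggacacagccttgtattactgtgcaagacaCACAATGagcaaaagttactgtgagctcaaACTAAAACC

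Each replicate was deposited as an a and a b list, and these differed in the bait that their reads carried. The start of the bait is shown for both, with the bases that differ in capitals. This form made up 85.9% to 95.2% of reads in the 14 libraries.
bait a: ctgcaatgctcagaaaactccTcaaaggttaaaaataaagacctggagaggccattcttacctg
bait b: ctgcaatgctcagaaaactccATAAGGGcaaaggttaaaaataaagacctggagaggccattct
Shares were computed in each list and averaged over a and b. The largest gap between the a and b lists of a replicate was 1.89 percentage points for the Ighd4-1 share, 1.41 for the Ighd1-1 share and 0.839 for the VH share.

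Replicates of the degron line held 25046 to 46510 junctions and those of the parental line 14866 to 231023. Read names placed degron replicates 1, 2 and 3 in runs 2, 6 and 8, parental replicates 1 and 2 in run 7 and parental replicates 3 and 4 in run 11, so that line and sequencing run cannot be told apart. Distinct junctions made up 88.2% to 90.6% of reads in the degron replicates and 90.3% and 91.4% in parental replicates 1 and 2, but 48.8% and 42.1% in parental replicates 3 and 4, which held 231023 and 225136 junctions. Several results that touch this difference are given for each run of the parental line, and the others are given over both runs. Ighd4-1 shares in the degron line after IAA were 57.3%, 61.9% and 50.01%, and are given only to place the untreated values. Those replicates held only 1811, 1263 and 2492 junctions.

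Junctions of the untreated degron line lay more often at JH-proximal D segments, and less often at Ighd1-1, than those of the parental line. Ighd4-1 made up 12.7%, 16.7% and 14.1% of junctions in degron replicates 1, 2 and 3, and 5.87%, 6.89%, 4.95% and 4.88% in parental replicates 1 to 4. Every degron replicate lay above every parental one, and the means were 14.5% ± 2.04 (SD, n = 3) and 5.65% ± 0.945 (SD, n = 4), a 2.56-fold difference. The Ighd2 and Ighd3 families (DSP2 and DST4), which fill most of the array between its ends, made up 36.6%, 35.4% and 32.6% against 25.4%, 24.3%, 25.5% and 25.9%. Again the groups did not overlap. Ighd1-1, the segment used most in both lines, made up 45.5%, 43.1% and 48.1% of degron junctions and 61.5%, 60.7%, 60.3% and 60.2% of parental junctions. All 3 degron values were lower, with means of 45.6% ± 2.54 (SD, n = 3) and 60.7% ± 0.571 (SD, n = 4).

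VH joins were also rarer in the degron line. They made up 1.81%, 1.97% and 1.91% of junctions in the degron replicates against 3.46%, 4.31%, 5.50% and 5.18% in the parental replicates. The degron values lay close together, at 1.90% ± 0.0794 (SD, n = 3), while the parental values, at 4.61% ± 0.918 (SD, n = 4), were lower in run 7 than in run 11. The parental mean was 2.43 times the degron mean. Counting error was small beside these gaps: the 95% Wilson interval of the VH share, with a and b summed, ran from 1.80% to 2.15% in the shallowest degron replicate and from 3.20% to 3.74% in the lowest parental one. Such intervals cover counting error only, since PCR reads without molecular identifiers are not independent molecules. D joins as a whole made up 95.8% ± 0.153 (SD, n = 3) of degron junctions and 92.5% ± 0.965 (SD, n = 4) of parental junctions.

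**Figure D1:**
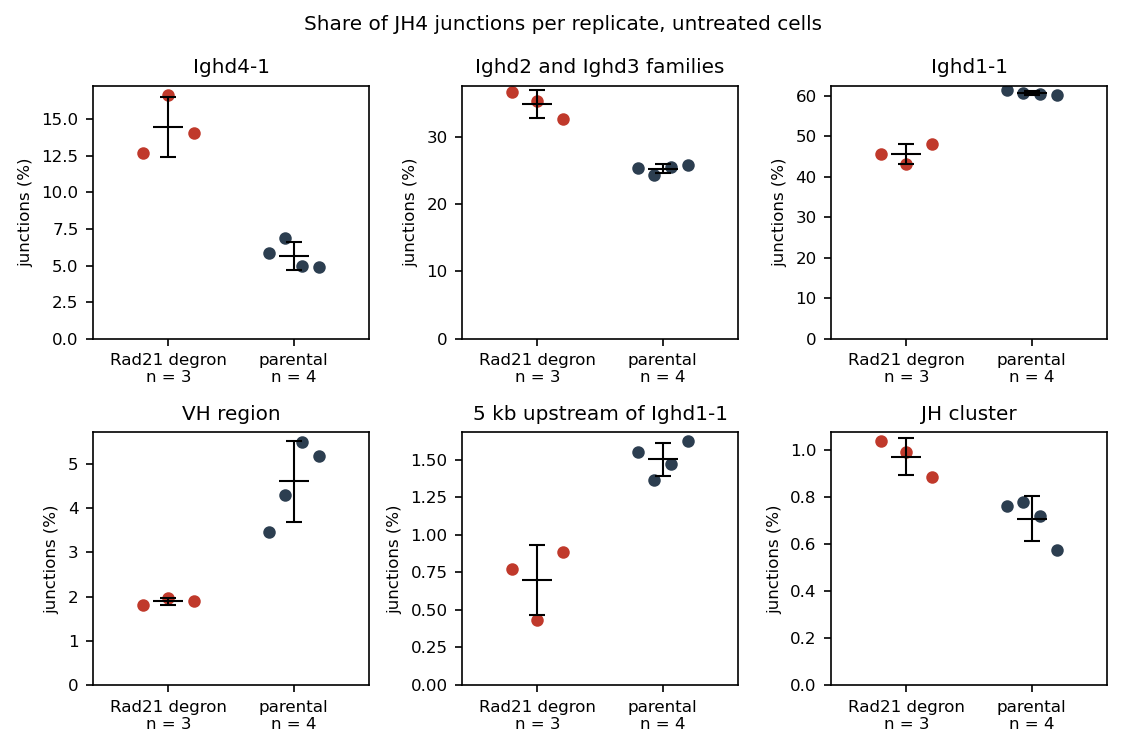
Share of all JH4 junctions (%, y axis) in each replicate of the untreated degron line (red, n = 3) and parental line (dark, n = 4), with the mean and SD in black, for 6 classes of prey. Ighd4-1, the Ighd2 and Ighd3 families and the JH cluster are higher in the degron line, and Ighd1-1, the VH region and the 5 kb upstream of Ighd1-1 are lower, with no overlap between lines.

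These values were compared by exact permutation of the line labels, two-sided, with the gap between means as the statistic. With 3 against 4 replicates the smallest p that this test can give is 0.0571, so no share could pass 0.05. Of 22 measures, 16 had no overlap between lines (72.7%) and reached that smallest p, which is 0.0786 after Benjamini-Hochberg adjustment over the 22. The differences had the same direction against each parental run: for the VH share the differences were -1.98 and -3.44 percentage points against runs 7 and 11. For Ighd4-1 the differences were 8.10 and 9.57 points, and for Ighd1-1 they were -15.6 and -14.7 points.

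Counting identical junctions once left the Ighd4-1 and VH shares apart and brought the Ighd1-1 shares together in run 11. Counted once, the Ighd1-1 share was 43.0%, 41.4% and 45.5% in the degron replicates, 59.0% and 58.8% in parental replicates 1 and 2, and 45.2% and 44.9% in parental replicates 3 and 4. The last pair now fell within the degron range, and the exact permutation p of the difference was 0.171. The Ighd4-1 share counted once was 12.6%, 16.4% and 14.2% against 6.24%, 7.19%, 6.11% and 6.03%. The VH share counted once was 1.97%, 2.12% and 2.07% against 3.74%, 4.56%, 9.40% and 8.79%. Identical junctions were those with the same prey coordinates, bait end and number of inserted bases. Separate joins alike in all of these were therefore also counted once. Depth was not evened out between replicates, so values counted once can also depend on depth. How far repeated reads of one junction set these values was not tested.

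Single segments were tested with limma's voom weights on junction tallies relative to the library total. After a minimum mean of 10 junctions per replicate, 26 segments (16 D and 10 VH) remained, and 20 of them (76.9%) passed an adjusted p of 0.05: 11 were higher in the degron line (42.3%), all D, and 9 were lower (34.6%), of which 7 were VH. This was 13 of the 16 D segments (81.2%, with 68.8% higher and 12.5% lower) and 7 of the 10 VH segments (70%, all lower). Replicate shares did not overlap between lines for 18 of the 26 segments (69.2%), all of them among the 20. Because the parental line held 488632 of the junctions and the degron line 113444, the minimum favoured segments used in the parental line. 4 of the 26 had a mean under 10 junctions in the degron line. The median log2 change was 0.18 over all 26 segments, 0.80 over the D segments and -1.02 over the VH segments.

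D segments are described in their order from JH, by their distance from Ighd4-1 and, where several copies match one mm9 symbol, by the closest symbol. Ighd4-1 itself was higher in the degron line by 1.42 ± 0.12 on the log2 scale (SE; limma adjusted p = 8e-06). The next segment, an Ighd3-2-like D 14.5 kb away (chr12:114687612 in the authors' hybrid genome), made up 1.26%, 1.09% and 1.42% of degron junctions and 0.551%, 0.700%, 0.429% and 0.462% of parental junctions. Its log2 change was 1.41 ± 0.16 (limma adjusted p = 2.02e-05), close to that of Ighd4-1. With identical junctions counted once, the change was 0.89 for this segment and 1.19 for Ighd4-1.

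The Ighd2 family had 8 tested members, of which 6 were higher in the degron line, none was lower and 2 were not called, with a median log2 change of 0.57. This share of 6 in 8 is close to the 68.8% of all tested D segments that were higher. The member used most among those nearer to JH, 17.2 kb from Ighd4-1 (114690286), made up 9.83%, 10.7% and 9.70% of degron junctions and 6.65%, 5.95%, 6.01% and 5.74% of parental junctions. No replicate overlapped, and the log2 change was 0.75 ± 0.08 (limma adjusted p = 1.86e-05). The copies 27.3 kb and 36.99 kb away, both closest to Ighd2-4, had log2 changes of 0.99 ± 0.10 and 1.04 ± 0.17, and the copy 41.6 kb away, closest to Ighd2-8, one of 0.86 ± 0.10. Counted once, these 3 were smaller, at 0.53, 0.56 and 0.54, and remained called. The copy 22.7 kb away changed less, by 0.39 ± 0.09 (limma adjusted p = 0.00251), which became 0.17 (adjusted p = 0.237) with identical junctions counted once. For that 32.3 kb away the lines overlapped, at 2.75%, 2.004% and 2.13% against 2.57%, 2.39%, 1.59% and 1.83%, and its log2 change of 0.31 ± 0.17 was not called (limma adjusted p = 0.114). It was called without parental replicate 1, at 0.35 (adjusted p = 0.0425), and against parental run 11 alone, at 0.43 (adjusted p = 0.0210), and turned to -0.12 against run 7 alone and to -0.09 with identical junctions counted once.

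At the far end of the array the differences were smaller or of the opposite sign. Ighd2-7, 50.4 kb from Ighd4-1, had a log2 change of 0.32 ± 0.13 (limma adjusted p = 0.0397). Its call was lost without any 1 of 6 replicates (degron 1 or 2, or any parental one, with values of 0.21 to 0.35). Against parental run 7 alone the change was 0.23 (limma adjusted p = 0.255), and it turned to -0.13 when identical junctions were counted once. Ighd2-3, 54.7 kb away and the most used Ighd2 member in the parental line, made up 7.31%, 7.38% and 6.13% in the degron line. In the parental line it made up 6.25% and 6.14% in run 7 and 8.92% and 9.07% in run 11, so that degron replicates 1 and 2 lay between the runs and degron replicate 3 lay just below run 7. Its log2 change was -0.25 ± 0.16 (limma adjusted p = 0.172). It was called without parental replicate 1, at -0.30 (adjusted p = 0.0357), and turned to 0.15 (adjusted p = 0.288) against parental run 7 alone. A D 46.3 kb away, whose closest symbol is Ighd1-1 at 81.0% identity, had means of 0.666% and 0.674% (log2 change 0.04 ± 0.14, limma adjusted p = 0.759, and -0.35 with identical junctions counted once). Ighd1-1, 61.5 kb away, was lower by a log2 change of -0.40 ± 0.05 (limma adjusted p = 3.62e-05), which became -0.25 (adjusted p = 0.127) with identical junctions counted once.

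The rarely used D segments rest on few junctions. Ighd6-1, 59.4 kb away, made up 0.0237%, 0.0399% and 0.0334% of degron junctions and 0.0284%, 0.0807%, 0.100% and 0.0919% of parental junctions. Its log2 change of -1.40 ± 0.41 (limma adjusted p = 0.00994) was lost without degron replicate 1, at -1.21 (adjusted p = 0.0712), in the b libraries alone, at -0.97 (adjusted p = 0.101), counted once, at -1.35 (adjusted p = 0.0581), and against parental run 7 alone, at -0.65 (adjusted p = 0.0675). Of 3 Ighd5-7-like segments, those 25.8 kb, 35.5 kb and 40.1 kb away, all were called higher, with log2 changes of 1.18 ± 0.48, 0.89 ± 0.32 and 1.68 ± 0.36 at mean degron tallies of 8.67, 12.7 and 13.0 junctions. The first lost its call without any 1 degron replicate or without parental replicate 4, with values of 0.79 to 1.51. The second lost it without degron replicate 1 or 2 or parental replicate 3, with values of 0.60 to 0.82, or with identical junctions counted once, at 0.39. The third kept its call counted once, at 0.82. With no minimum tally, the first and second lost their calls.

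Across the 16 tested D segments the log2 change and the distance from Ighd4-1 had a Pearson r of -0.72 and a Spearman rho of -0.69, and across the 12 with at least 100 junctions per degron replicate they had -0.82 and -0.80. These describe segments of the same libraries, which share one total, so that a higher share of one segment lowers the others. Relative to the D total alone, 11 of 16 D segments were called (68.8%): 9 higher (56.2%) and 2 lower (12.5%). On that scale Ighd4-1 had a log2 change of 1.37 ± 0.13 and Ighd1-1 one of -0.45 ± 0.05 (limma adjusted p = 7.09e-06 and 8.38e-06), so both differences were present with the VH junctions left out of the scale.

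**Figure D2:**
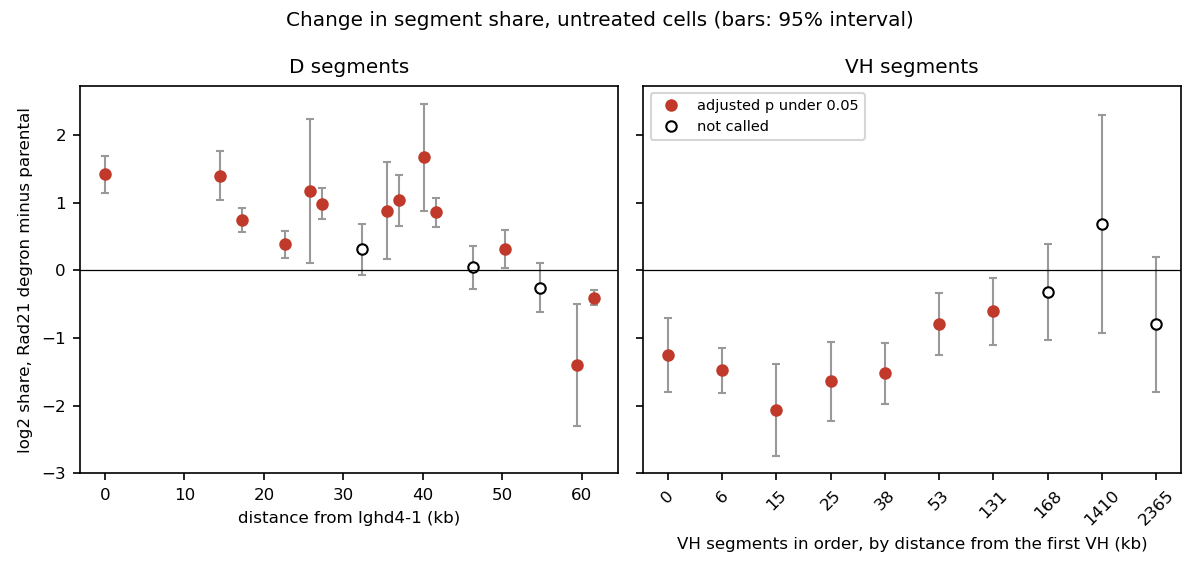
Difference in log2 share (degron minus parental, y axis) for 16 D segments by distance from Ighd4-1 in kb (left) and 10 VH segments in locus order, labelled by distance from the first VH in kb (right), with 95% intervals. Filled points have an adjusted p under 0.05; D values range from 1.68 at an Ighd5-7-like segment to -1.40 at Ighd6-1, with Ighd4-1 at 1.42 and Ighd1-1 at -0.40, and all 6 tested VH within 100 kb lie below 0.

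Among the 10 tested VH segments, the 7 that were called lower were the 7 nearest to the D array. At least 2 VH nearer than the last of these, Ighv2-4 and an Ighv5-9-like segment, were not tested. All 6 tested VH within 100 kb of the first used VH were lower in the degron line. Ighv5-2 (VH81X), the most used VH of the locus in these cells, made up 0.843%, 0.791% and 0.867% of degron junctions and 1.80%, 2.19%, 2.61% and 2.33% of parental junctions. The parental mean was 2.68 times the degron mean, and the log2 change was -1.48 ± 0.15 (limma adjusted p = 1.38e-05). The segment next in use, 15.3 kb from the first VH and closest to Ighv2-2, made up 0.277%, 0.275% and 0.270% against 0.596%, 0.774%, 1.36% and 1.39%. This was the largest VH difference, with a log2 change of -2.06 ± 0.31 (limma adjusted p = 0.000122), which was -1.30 against parental run 7 alone.

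The first VH itself (114830805, closest to Ighv5-4) made up 0.0624%, 0.0799% and 0.0645% against 0.114%, 0.114%, 0.181% and 0.184%, with a log2 change of -1.25 ± 0.25 (limma adjusted p = 0.001), or -0.76 against parental run 7 alone. A second segment closest to Ighv5-4, 24.6 kb further on, and Ighv2-3, 38.3 kb further on, had log2 changes of -1.64 ± 0.26 and -1.52 ± 0.20. The size of the difference then fell with distance. Ighv5-6, at 52.6 kb, had a log2 change of -0.79 ± 0.21 (limma adjusted p = 0.00555), a call lost in the b libraries alone, at -0.64 (adjusted p = 0.0852), and with no minimum tally (adjusted p = 0.0914). Ighv5-12, at 130.7 kb, had one of -0.61 ± 0.22 (limma adjusted p = 0.031). The call of Ighv5-12 was lost without any 1 of 6 replicates (any degron one, or parental 2, 3 or 4), with values of -0.50 to -0.66. It was also lost against parental run 7 alone, at -0.45 (limma adjusted p = 0.191). By family, 5 of 6 tested Ighv5 members and both tested Ighv2 members were lower, where 70% of all tested VH were, so neither count is a result about a family.

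Beyond these, no tested VH was called. An Ighv5-6-like segment at 167.8 kb had a log2 change of -0.32 ± 0.32 (limma adjusted p = 0.364), and an Ighv8-11-like segment at 2365 kb one of -0.80 ± 0.45 (limma adjusted p = 0.122). A segment at 1410 kb, closest to Ighv1-84 (J558 family), rested on 5, 10 and 5 junctions in the degron replicates and on 0, 0, 35 and 44 in the parental ones, and had a log2 change of 0.69 ± 0.73 (limma adjusted p = 0.383). Ighv8-12, among the 10 most used VH when both lines weigh the same, had 8, 6 and 3 junctions against 2, 3, 17 and 23, a mean under the minimum of 10.

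The same pattern held for whole stretches of the VH region. The first 100 kb made up 1.505%, 1.45% and 1.55% of all junctions in the degron line and 3.15%, 3.90%, 5.12% and 4.82% in the parental line, which did not overlap. From 100 to 500 kb the values were 0.134%, 0.155% and 0.174% against 0.125%, 0.208%, 0.191% and 0.162%, within each other's range. The stretch beyond 500 kb made up 0.174%, 0.367% and 0.181% of degron junctions and 0.187%, 0.195%, 0.188% and 0.195% of parental junctions (exact permutation p = 0.857). Degron replicate 2 stood above all others there, and the other 2 degron replicates lay just below the parental range. A change in distal VH use was therefore not detected relative to all junctions, with 3 against 4 replicates.

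As a share of VH junctions alone, distal values were higher in the degron line than in the parental line. The first 100 kb held 83.0%, 73.3% and 81.4% of VH junctions against 91.1%, 90.6%, 93.1% and 93.1%. Beyond 500 kb lay 9.56%, 18.7% and 9.58% against 5.24%, 4.53%, 3.40% and 3.75%. Ighv5-2 held 44.0% ± 3.47 (SD, n = 3) and 48.9% ± 3.18 (SD, n = 4) of VH junctions, which overlapped (exact permutation p = 0.171), and the first VH 3.64% ± 0.365 and 3.22% ± 0.400 (exact permutation p = 0.286).

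On the scale of VH junctions, 5 of 10 VH segments were called (50%), 1 lower (10%) and 4 higher (40%). The Ighv2-2-like segment was lower, at -0.74 ± 0.20 (limma adjusted p = 0.0123), and Ighv5-6, Ighv5-12, the Ighv5-6-like segment at 167.8 kb and the segment closest to Ighv1-84 were higher, at 0.56 ± 0.16, 0.76 ± 0.15, 1.09 ± 0.25 and 1.79 ± 0.59. With the replicate number as a block, in replicates 1 to 3, 3 were called, and without parental replicate 2 also 3.

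**Figure D3:**
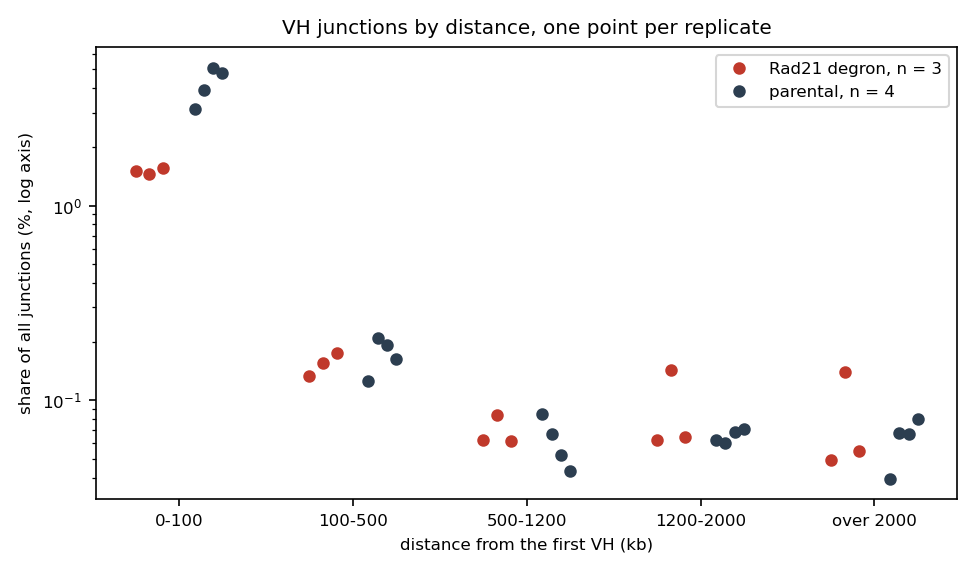
Share of all junctions (%, log y axis) in 5 stretches of the VH region by distance from the first used VH in kb, 1 point per replicate of the degron line (red, n = 3) and parental line (dark, n = 4). The lines are apart only in the first 100 kb, at 1.45% to 1.55% against 3.15% to 5.12%, and overlap in the 4 stretches beyond it.

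Rarer junction classes also differed between lines. The 5 kb upstream of Ighd1-1, which holds no annotated V or D segment, received 0.775%, 0.435% and 0.883% of degron junctions and 1.55%, 1.37%, 1.47% and 1.62% of parental junctions. The parental mean was 2.15 times the degron mean, and the difference went from -0.80 to -1.39 points with identical junctions counted once. Of 15 sites in this stretch at which junctions gathered, 13 had a lower mean in the degron line, 6 of them with no overlap between replicates. Sites were picked over both lines and the other untreated lines described below, with a minimum tally. That minimum favoured sites used in lines with more junctions. The smallest exact permutation p of a site was 0.0571, which is 0.147 after adjustment over 18 site tests. Among the tested segments, 18 of 26 had no overlap (69.2%), so the count of sites is not a result about them. The 13 sites with a lower mean were not set beside a matching share of segments. Junctions between D segments, away from any of them, made up 0.115% ± 0.0519 (SD, n = 3) and 0.215% ± 0.0296 (SD, n = 4), also without overlap, and their difference went from -0.10 to -0.18 points counted once.

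The sites used most in the parental line are shown because they lack an annotated segment. Sequences are from the minus strand of mm9 and read towards the side that the junctions lose, with 20 retained bases in lower case and the 7 bases directly beyond the most frequent break in capitals.
site 1030 bp upstream, mm9 chr12:114721383-114721430: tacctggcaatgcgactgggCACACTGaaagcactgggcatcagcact
site 3660 bp upstream, mm9 chr12:114724000-114724047: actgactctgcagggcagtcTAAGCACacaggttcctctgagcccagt
site 1986 bp upstream, mm9 chr12:114722339-114722386: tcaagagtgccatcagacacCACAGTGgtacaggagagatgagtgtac
The 7 bases at the last of these are those of the Ighd1-1 3′ heptamer. At 10 of the 15 sites the break was directly followed by CAC, the first 3 bases of that heptamer, which is so at 2.41% of the positions in this 4900 bp window on this strand. No site lies in an annotated gene, and the prey sequence at 1030 bp matched a second place on chromosome 12 equally well.

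The site 1030 bp upstream received 0.340%, 0.156% and 0.291% of degron junctions and 0.466%, 0.471%, 0.476% and 0.474% of parental junctions. The degron values varied more and were all lower. The site 3660 bp upstream received 0.0864%, 0.0318% and 0.105% against 0.239%, 0.182%, 0.303% and 0.390%, a parental mean 3.74 times the degron mean. For the site 1986 bp upstream the values were 0.135%, 0.0842% and 0.181% against 0.330%, 0.296%, 0.223% and 0.196%.

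Junctions within the JH cluster were slightly more frequent in the degron line, at 1.04%, 0.995% and 0.886% against 0.761%, 0.782%, 0.721% and 0.574%. Most had the minus orientation, in which the bait joins a JH end by inversion, at 0.915% ± 0.0717 (SD, n = 3) and 0.669% ± 0.0927 (SD, n = 4). They gathered at mm9 chr12:114667344, 114667726 and 114668042, at JH3, JH2 and JH1. With identical junctions counted once, the JH difference fell from 0.26 to 0.07 points. Junctions in the interval that holds IGCR1 were too rare to compare, at 0.0116% and 0.0104%, with 0 in parental replicate 1, where a count of 0 allows up to 0.0170%. Minus-orientation D junctions made up 0.0610% and 0.0921% (exact permutation p = 0.114).

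Junctions outside chromosome 12 made up 0.367%, 0.470% and 0.411% of degron junctions and 0.284%, 0.284%, 0.279% and 0.334% of parental junctions. The groups did not overlap as deposited. With identical junctions counted once the difference fell from 0.12 to 0.02 points. Elsewhere on chromosome 12 the shares were 0.0324% ± 0.0115 (SD, n = 3) and 0.0777% ± 0.0404 (SD, n = 4), which overlapped (exact permutation p = 0.171), with differences of -0.011 and -0.079 points against runs 7 and 11.

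The structure of D junctions also differed, with parental run 11 furthest from the degron line. Run 11 also differed in depth and in the share of distinct junctions, and these cannot be told apart from the run. Inserted bases, which lie between bait and prey and match neither, were present in 80.1%, 81.7% and 80.8% of Ighd1-1 junctions in the degron line. In the parental line they were present in 74.1% and 75.1% in run 7 and in 53.4% and 50.2% in run 11. The spread between parental runs was larger than the gap between run 7 and the degron line, which was 6.26 points. Ighd4-1 junctions had insertions in 83.4%, 82.8% and 81.4% against 75.0%, 76.8%, 48.6% and 44.7%, with the same order of runs.

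Microhomology, bases shared by both ends at the join, went the other way. It was found in 11.6%, 10.5% and 10.7% of Ighd1-1 junctions in the degron line, in 15.5% and 14.8% in parental run 7 and in 31.0% and 33.2% in run 11. At Ighd4-1 it was found in 6.93%, 7.25% and 8.70% in the degron line, in 11.8% and 11.3% in run 7 and in 24.6% and 25.3% in run 11. The Ighd4-1 difference was therefore -3.94 points against run 7 and -17.3 points against run 11. With identical junctions counted once, the differences between lines fell in size, from 17.7 to 7.36 points for Ighd1-1 insertions and from 21.3 to 15.8 points for Ighd4-1 insertions. For microhomology they went from -12.7 to -3.46 points at Ighd1-1 and from -10.6 to -6.42 points at Ighd4-1. Mean trimming of the Ighd1-1 end was 4.12, 4.35 and 4.15 bases against 3.81, 3.86, 3.20 and 3.09 bases, and fell to a difference of 0.08 bases with identical junctions counted once. At Ighd4-1 the trimming overlapped, at 2.22 ± 0.0978 (SD, n = 3) and 2.004 ± 0.272 bases (SD, n = 4), a difference of -0.014 bases against run 7 and 0.45 bases against run 11.

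**Figure D4:**
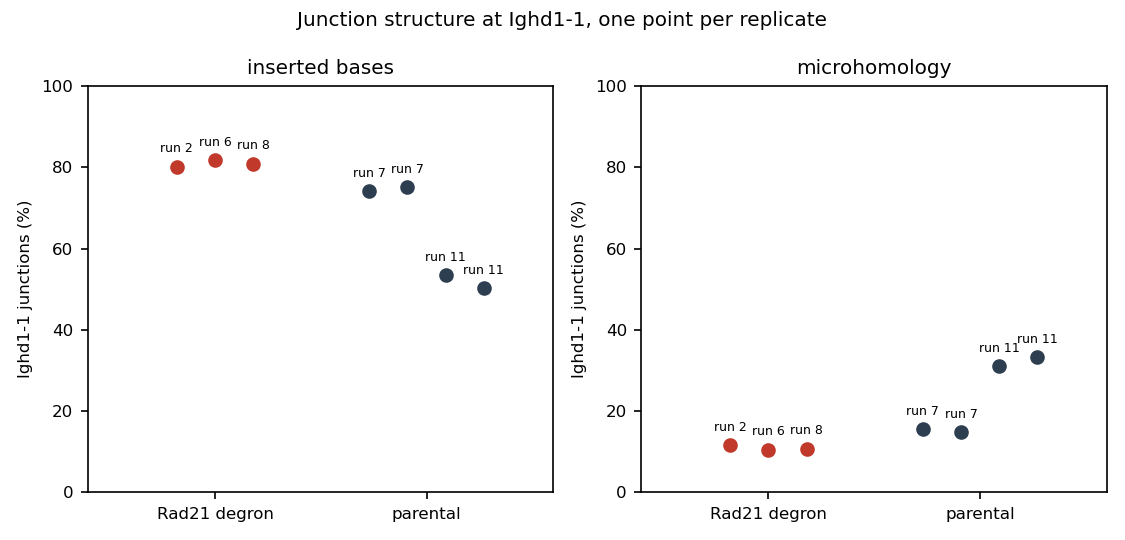
Share of Ighd1-1 junctions (%, y axis) with inserted bases (left) and with microhomology (right) in each replicate of the degron and parental lines, labelled by sequencing run. Parental run 11 stands at 50.2% to 53.4% with insertions, below both parental run 7 at 74.1% to 75.1% and the degron replicates at 80.1% to 81.7%.

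VH junctions were read from the same bait, so the bases between bait and VH can hold the D of a VDJ join. The median insert was 15 bases in all degron replicates, 15 in parental replicates 1 and 2 and 13 in parental replicates 3 and 4. Each insert was given to the D family with the longest matching stretch of at least 7 bases. Ighd1 was found in 20.3%, 19.7% and 20.2% of degron VH junctions and in 19.7%, 22.8%, 21.2% and 19.8% of parental ones, which overlapped (exact permutation p = 0.514). Ighd2 was found in 38.7%, 40.5% and 38.6% against 45.6%, 44.7%, 43.0% and 45.2%, without overlap (exact permutation p = 0.0571, 0.143 adjusted over 5 measures). Ighd4 was found in 7.12%, 4.11% and 6.82% against 3.47%, 4.28%, 3.596% and 3.12%, with degron replicate 2 inside the parental range (exact permutation p = 0.114). No family reached 7 bases in 32.9% ± 1.49 (SD, n = 3) and 28.9% ± 1.58 (SD, n = 4), also without overlap (exact permutation p = 0.0571, 0.143 adjusted). Family shares were taken over all these VH junctions, matched or not, so a higher unmatched share lowers them. Shares among matched inserts alone were not compared. Short D segments such as Ighd4-1, with 11 bases, reach this length less easily after trimming.

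The other untreated lines of the series gave a wider background for the parental values. These were a line with OsTIR1 only (4 replicates), a line with the CTCF tag only (4) and the CTCF degron line (6), none of which had IAA. All are set against the same 3 degron replicates. Ighd4-1 shares were 4.63% to 6.22% with OsTIR1 only, 4.66% to 5.16% with the CTCF tag only and 6.21% to 10.9% in the CTCF degron line, all below the lowest Rad21 degron replicate at 12.7%. VH shares were 3.71% to 5.82%, 3.09% to 4.24% and 2.64% to 6.56%, all above the highest Rad21 degron replicate at 1.97%. Ighd1-1 shares were 46.3% to 60.7%, 59.5% to 71.3% and 52.9% to 72.7%, and only those of the line with OsTIR1 overlapped the Rad21 degron values, through 1 of its run 11 replicates at 46.3%, while the other, at 54.1%, lay above them. Counted once, that difference was -3.27 points (exact permutation p = 0.571).

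Of these 9 comparisons, 8 (88.9%) had no overlap. Against the CTCF degron line the exact permutation p was 0.0238 for each of the 3 shares, the smallest that 3 against 6 can give, and 0.0643 after adjustment over the 9. Without any 1 Rad21 degron replicate that p was 0.0714, again the smallest possible. Against the lines with 4 replicates it was 0.0571 wherever the values did not overlap. Run 7 holds libraries of the parental line and the line with the CTCF tag only, and run 11 those of the parental line and the line with OsTIR1 only. No run holds both untreated Rad21 degron and any of these lines.

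**Figure D5:**
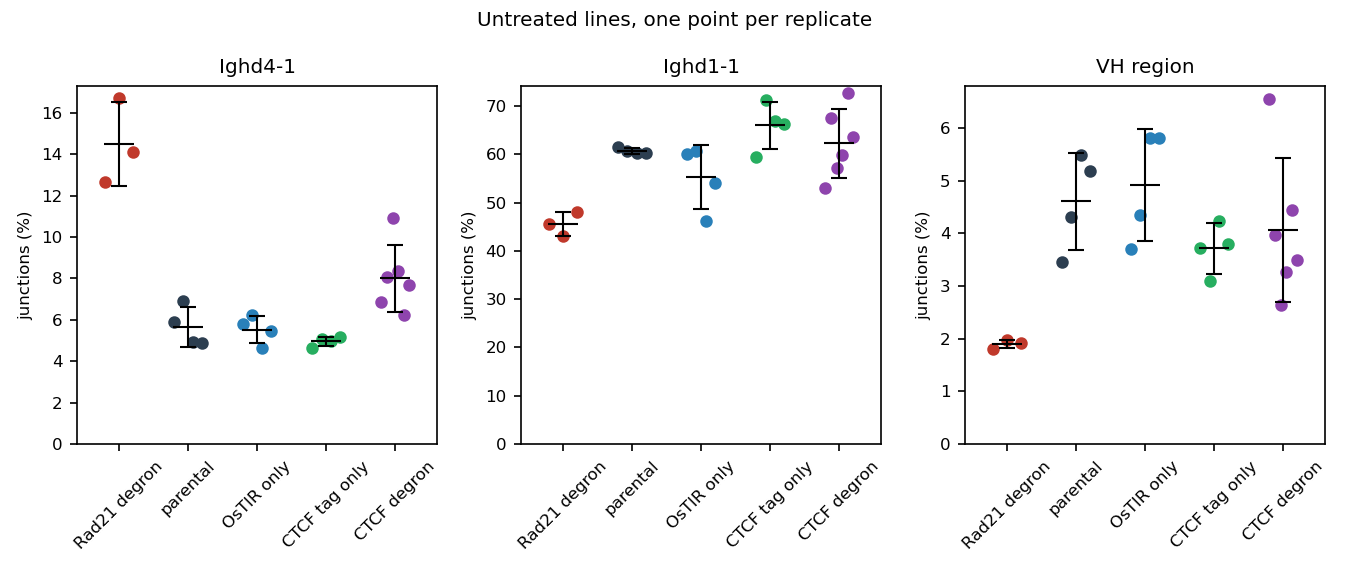
Share of all junctions (%, y axis) at Ighd4-1, Ighd1-1 and the VH region in each replicate of 5 untreated lines (n = 3, 4, 4, 4 and 6 from left to right), with mean and SD in black. The Rad21 degron line lies above all others at Ighd4-1 and below all others for VH.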

How the data were processed

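Groups and replicate numbers came from sample titles. The members and lists were chosen with earlier results of these data known. Each line of a deposited file is 1 junction, with no column of counts, and counts were tallied here; per the labels' descriptions and the submitters' processing notes, reads were aligned to a build made of mm9 and a second Igh sequence, and Bowtie2 is named. Versions and filters are not given in the sources used here. Positions were shifted by the 3 bases by which a and b lists differ from bone marrow, and peaks were matched to mm9 V and D segments. Junctions up to 100 bp from a segment were tallied to it; a symbol required 98% identity and a match clearly better than the next. The segment fits used limma 3.58.1 in R 4.3.3, with voom, lmFit and eBayes on a and b summed, with pseudocount 0.5. In simulated data for the comparison of the 2 lines (26 segments, 8 of them changed 2.5-fold) 90.2% of changes were recovered and 1.67% of unchanged segments called. The simulation had the same dispersion for every segment and no run effect. Its rates therefore do not carry over to these data, in which the parental runs differ. Named segments are all tested D, the first VH, Ighv5-2 and the 10 most used VH. Replicate numbers were not taken to pair the samples. Deviations of same-numbered replicates correlated at 0.379, -0.489 and -0.303, and those of differently numbered ones at -0.557 to 0.625. Parental replicates 1 to 3 came from 2 runs, so these correlations cannot decide whether replicates pair.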

Additional observations from a re-analysis of the deposited data

Results flagged for a closer look

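Among 57 groups of 4 to 6 replicate values checked, 2 held a value far from the others, and chance alone marks about 1 in 20. Parental replicate 4 had 0.334% of its junctions on other chromosomes, where the other 3 parental replicates had 0.279% to 0.284%. The Ighv5-6 share in parental replicate 3 was 0.153%, where the others had 0.125% to 0.128%.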

How the results depend on the processing

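Of 405 recomputed share and structure values, 387 kept their direction and their side of the threshold. Since 3 against 4 replicates cannot pass 0.05, keeping their side says little; directions are what these alternatives tested. The IGCR1 interval share, 0.0012 points higher in the degron line, turned to -0.0081 with identical junctions counted once, -0.0045 in b libraries, -0.0058 against parental replicates 3 and 4, and ranged from -0.0071 to 0.0058 when replicates were left out. Trimming at Ighd4-1 turned to -0.014 bases against parental replicates 1 and 2. Comparisons with each run of the parental line alone were chosen after seeing the data. Against the CTCF degron line, a replicate block was tested by sign flips of the 3 same-numbered differences. It gave p = 0.25, the smallest it can give, for the VH (-2.50 points), Ighd4-1 (5.88) and Ighd1-1 shares (-13.7). Without single replicates these differences ranged from -2.46 to -1.67, 5.37 to 7.38 and -18.6 to -14.7. D segments called fell from 13 to 7 with identical junctions counted once and to 8 against parental replicates 1 and 2 alone. D segments called within D fell from 11 to 7 in both cases. VH segments called within VH were 3 with the replicate block and 8 against parental replicates 3 and 4 alone, and ranged from 3 to 7 when replicates were left out. Ighd2-7 turned to -0.13. The replicate numbers were not taken to pair the samples. With the block, 16 segments were called (10 D, 6 VH). Of the 20 called segments, 12 were called in every setting that tested them. Alternative denominators for shares outside Igh were not run. VH tallies of 493 to 843 per degron replicate limit what can be said of single distal VH.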
